A study of Mus musculus with 12 samples.

Results

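The oligosaccharyltransferase (OST) is the enzyme complex of the endoplasmic reticulum (ER) that attaches N-linked glycans to proteins. Its subunits were followed here through 9 genes, *Rpn1*, *Rpn2*, *Ddost*, *Dad1*, *Stt3a*, *Stt3b*, *Ostc*, *Magt1* and *Tusc3*, which were chosen by name from the 55367 gene symbols of the RNA-seq files. All 9 were found in all 12 samples and were among the 14428 genes tested. RNA had been prepared from single fibers of the extensor digitorum longus (EDL), a fast hindlimb muscle, which were freed with collagenase. The study's mice were C57BL/6J, with 4 samples of fibers from young mice (3–4 months) and 8 samples from aged mice (26–28 months). Fluo-4 is a fluorescent Ca2+ indicator, and the aged fibers were sorted under a fluorescence stereomicroscope into 4 samples with normal and 4 samples with abnormal staining. No genetic change or treatment is given for these samples, and the number of fibers and mice behind a sample is not given in the sources used here. P-values therefore measure the spread between these samples, which may be partly technical.

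In the ER lumen, OST moves a preassembled glycan from a dolichol lipid onto asparagine residues of newly made secretory and membrane proteins. The catalytic subunit is either STT3A, which works beside the Sec61 channel while the chain is being translocated, or STT3B, which also reaches sites that STT3A has skipped. RPN1, RPN2, DDOST, DAD1, OST4 and TMEM258 belong to both forms, OSTC and KRTCAP2 to the STT3A form, and the oxidoreductases MAGT1 and TUSC3 to the STT3B form. In muscle fibers, where the sarcoplasmic reticulum is a specialised part of the ER, many Ca2+ handling and surface proteins are N-glycosylated.

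Values are TPM (transcripts per 1000000), a unit corrected for transcript length that sums to 1000000 in each sample, so levels of different genes can be set side by side. Read counts were not used here and the depth of a sample is unknown. Between 16841 and 17936 genes had a value above 0 in a sample. Changes are differences on the log2(TPM + 1) scale from limma, with Benjamini-Hochberg adjustment over all genes tested, and this scale understates the change of low genes. All 7 fiber markers were detected in each group and summed to 65127–95423 TPM, whereas the markers of adipocytes were listed at 0 in all samples. Whether a higher TPM came from more transcript in each fiber or from another mix of fibers and cells cannot be told apart in these pooled RNAs.

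*Dad1*, a small membrane subunit, was the most abundant of the 9 transcripts, with 132 ± 7.2 TPM (SD, n = 4) in young, 118 ± 9.04 in Fluo-4 normal and 142 ± 12.8 in Fluo-4 abnormal fibers. In young fibers *Rpn2* followed with 46 ± 3.79 TPM. *Stt3b* (34.1 ± 3.36 TPM), *Ostc* (33.6 ± 1.63 TPM), *Ddost* (32.2 ± 1.66 TPM) and *Rpn1* (30.5 ± 2.33 TPM) lay close together, and the ranges of these neighbours overlapped. *Magt1* (14.1 ± 1.76 TPM), *Stt3a* (5.18 ± 0.596 TPM) and *Tusc3* (0.794 ± 0.431 TPM) were lower, and their ranges were separate from each other. *Dad1* gave 40.2% of the summed TPM of the 9 genes in young, 39.2% in normal and 35.6% in abnormal fibers. The catalytic *Stt3a* gave 1.58%, 1.61% and 2.2%. Of the catalytic pair *Stt3b* exceeded *Stt3a*, and of the oxidoreductase pair *Magt1* exceeded *Tusc3*, in every group.

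On GRCm39 with the GENCODE vM39 annotation, the shared subunits lay at chr6:88061458-88082286 (*Rpn1*, plus strand), chr2:157120893-157168362 (*Rpn2*, plus), chr4:138032018-138040859 (*Ddost*, plus) and chr14:54472936-54491561 (*Dad1*, minus). Both catalytic genes were on chromosome 9, at chr9:36640640-36678975 (*Stt3a*, minus) and chr9:115067685-115140000 (*Stt3b*, minus). *Ostc* lay at chr3:130489561-130503095 (minus), *Magt1* at chrX:105011690-105055528 (minus) and *Tusc3* at chr8:39472818-39658065 (plus). The libraries kept no record of strand, so reads from exons shared with a gene on the opposite strand cannot be assigned. The largest such overlap was in *Ddost*, with 1514 of the 3063 bases of its canonical transcript shared with *Pink1*. *Rpn2* shared 144 bases with *Mroh8*, *Rpn1* 131 bases with a microRNA gene, and *Dad1* and *Tusc3* shared 457 and 537 bases with long non-coding RNAs. *Stt3a*, *Stt3b* and *Magt1* shared none. None of the 9 genes had a near-identical transcript of another gene.

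The sequences around the start sites of 5 genes called higher in the abnormal against normal comparison are shown. They are 4 members (2 shared subunits, a catalytic subunit and an oxidoreductase) and the STT3A-form subunit *Krtcap2*. *Rpn1* and *Stt3b* were also called higher and have sequences that are not shown, so the call alone did not set the choice. *Ostc* and *Tusc3*, which were not called, have no entry in the table. The sequences shown are from RefSeq on GRCm38.p6, another build than the gene positions above. Each runs from 250 bases before to 50 bases after the annotated start. Capitals mark the CCAAT box, the binding letters of NF-Y, and CCACG, the letters bound beside it in ER stress response elements, on either strand (ATTGG and CGTGG when read from the other strand).
Rpn2 (chr2:157278848-157279147, plus): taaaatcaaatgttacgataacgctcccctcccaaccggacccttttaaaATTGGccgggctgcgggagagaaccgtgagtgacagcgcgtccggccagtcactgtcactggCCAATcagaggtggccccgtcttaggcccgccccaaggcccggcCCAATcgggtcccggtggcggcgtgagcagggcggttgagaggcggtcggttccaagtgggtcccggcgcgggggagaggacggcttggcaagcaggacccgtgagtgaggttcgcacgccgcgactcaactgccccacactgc
Ddost (chr4:138304488-138304787, plus): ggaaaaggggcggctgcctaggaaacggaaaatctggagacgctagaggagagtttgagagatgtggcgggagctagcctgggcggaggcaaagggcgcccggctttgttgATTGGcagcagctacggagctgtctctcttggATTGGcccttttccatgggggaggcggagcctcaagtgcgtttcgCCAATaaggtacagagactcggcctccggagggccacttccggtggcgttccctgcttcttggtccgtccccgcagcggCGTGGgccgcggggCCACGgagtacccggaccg
Stt3a (chr9:36767573-36767872, minus): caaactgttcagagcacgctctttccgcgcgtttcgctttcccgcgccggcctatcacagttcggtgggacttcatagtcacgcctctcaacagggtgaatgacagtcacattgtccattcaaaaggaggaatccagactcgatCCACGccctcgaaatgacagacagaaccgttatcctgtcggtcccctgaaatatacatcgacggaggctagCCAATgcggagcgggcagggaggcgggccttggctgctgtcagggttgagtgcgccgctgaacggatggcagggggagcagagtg
Magt1 (chrX:106011753-106012052, minus): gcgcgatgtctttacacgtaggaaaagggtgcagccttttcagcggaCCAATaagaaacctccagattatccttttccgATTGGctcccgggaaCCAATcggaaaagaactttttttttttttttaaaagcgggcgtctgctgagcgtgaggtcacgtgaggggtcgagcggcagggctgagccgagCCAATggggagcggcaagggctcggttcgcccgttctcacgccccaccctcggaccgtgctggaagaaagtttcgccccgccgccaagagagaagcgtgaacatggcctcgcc
Krtcap2 (chr3:89246223-89246522, plus): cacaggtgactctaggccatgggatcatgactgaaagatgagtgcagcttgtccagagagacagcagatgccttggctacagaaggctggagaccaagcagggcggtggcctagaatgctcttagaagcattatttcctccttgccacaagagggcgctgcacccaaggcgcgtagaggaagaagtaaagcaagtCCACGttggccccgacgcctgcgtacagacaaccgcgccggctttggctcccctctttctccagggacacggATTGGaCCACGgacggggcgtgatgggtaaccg

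Of the 9 members, 7 had a promoter in the table and *Rpn2* had 2, which gave 8 sequences. At least 1 CCAAT was present in 7 of the 8 sequences and for each of the 7 genes, against 37.4% of all 32851 mouse promoters of the same length. CCACG was present in 5 of the 8, against 32.8% of all promoters. The full ER stress response element (ERSE), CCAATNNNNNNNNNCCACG, was found on either strand in 0 of the 8 (0.119% of all promoters), its second form (ERSE-II, ATTGG and CCACG with 1 base between them) in 0 (0.0365%) and the XBP1-type letters TGACGTGG in 0 (0.676%). The *Krtcap2* sequence above held the second form, which overlaps the CCAAT and CCACG matches there, and was picked after that match was seen. The other *Krtcap2* promoter in the table (chr3:89246188-89246487, plus) and those of *Ost4* and *Tmem258* held neither the second form nor a CCAAT. In *Dad1*, which is not shown, the matches on the 2 strands overlapped. These are matches of letters, and factor binding was not measured.

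The comparison of Fluo-4 abnormal with Fluo-4 normal fibers asks how the transcripts differ between fibers with and without the altered staining in aged muscle. Most OST subunits were higher in the abnormal fibers. Of the 9 members, 6 rose at an adjusted p under 0.05, *Rpn1*, *Rpn2*, *Ddost*, *Stt3a*, *Stt3b* and *Magt1*, and none fell. Of all genes tested, 7.36% were called higher and 1.99% lower. A separate fit took only the 6348 genes with at least 5 TPM in a group, among which 8 members belong. That fit called 22.4% of its genes higher and 7 members, *Dad1* being the added one. For the 6 members called among all genes tested, every abnormal sample was above every normal sample, which held for 11.5% of all genes. The calls rest on the same samples, so this separation is not a result apart from them. All 9 changes were positive, against 69.6% of all genes and 4992 of the 6348 genes of at least 5 TPM. Their median was 0.40, against 0.10 over all genes tested and 0.20 over genes of at least 5 TPM. The summed TPM of the 9 members was 411, 413, 365 and 412 in the abnormal samples, 306, 288, 314 and 299 in the normal samples and 326, 341, 341 and 306 in the young samples. All abnormal sums were above all others, and the normal and young sums overlapped.

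**Figure D1:**
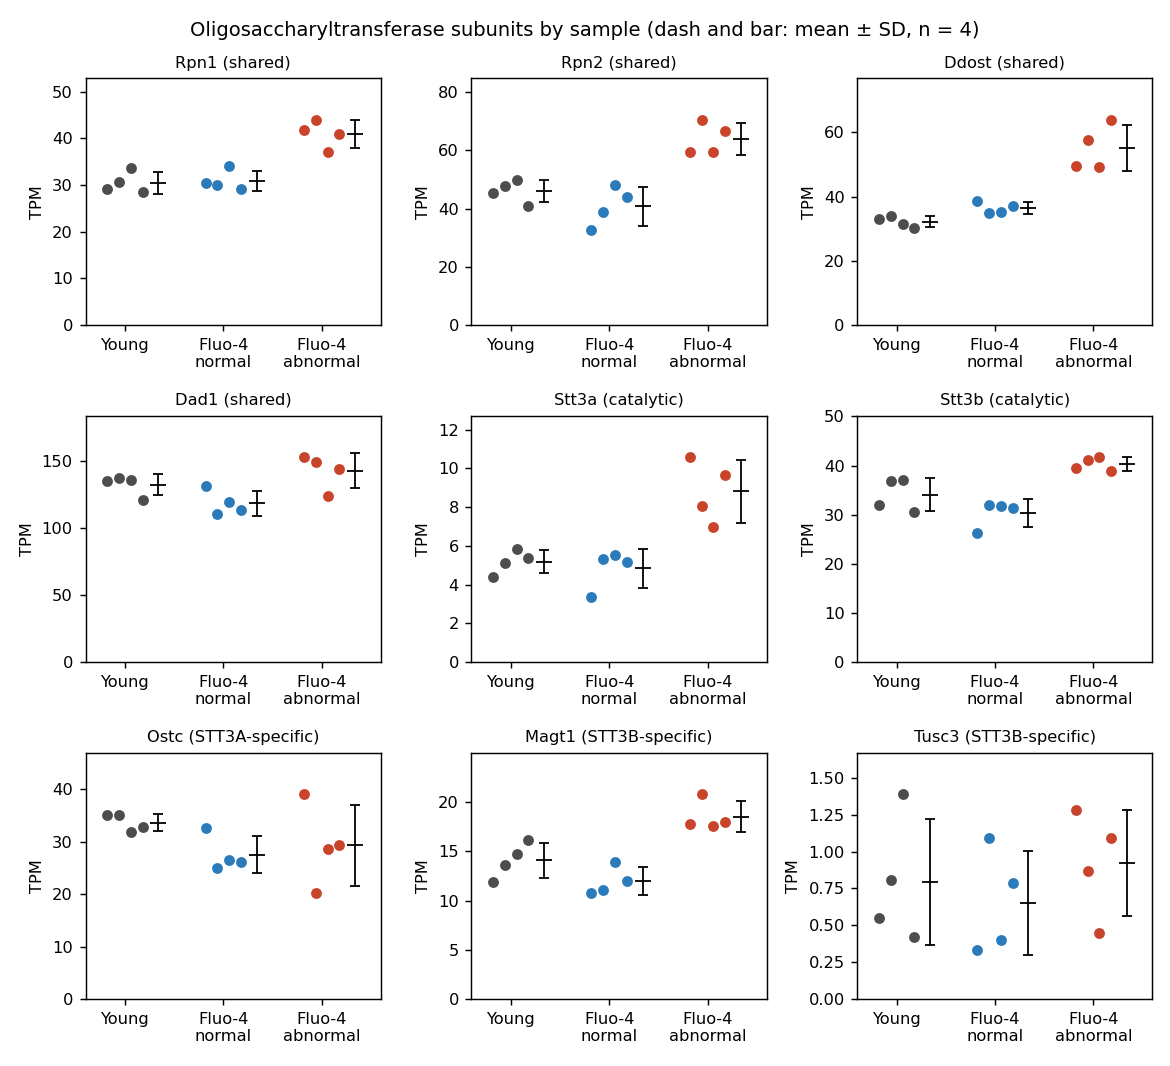
TPM of the 9 OST subunit genes in each of the 12 samples (points, replicates 1 to 4 from left to right within a group), with the mean and SD of each group (dash and bar, n = 4). The abnormal samples lie above all normal samples for Rpn1, Rpn2, Ddost, Stt3a, Stt3b and Magt1, and overlap with them for Dad1, Ostc and Tusc3.

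Among the shared subunits, *Rpn2* (ribophorin II) was 59.5, 70.6, 59.4 and 66.6 TPM in abnormal fibers, 32.7, 38.7, 48 and 43.9 TPM in normal fibers and 45.3, 47.9, 49.7 and 40.9 TPM in young fibers. The abnormal samples stood apart from both other groups, which overlapped with each other. The mean was 1.57 times that of normal fibers, a log2 change of 0.65 ± 0.11 (SE, limma adjusted p = 0.0041). *Ddost*, a scaffold subunit needed for stable assembly of the complex, was 49.5, 57.7, 49.3 and 64 TPM in abnormal, 38.6, 35, 35.1 and 37.2 TPM in normal and 32.9, 34.1, 31.4 and 30.3 TPM in young fibers. All 3 groups were separate for *Ddost*, in the order young, normal and abnormal. It rose by 0.57 ± 0.09 on the log2 scale (SE, limma adjusted p = 0.0025). *Pink1*, whose reads may be counted with it, was at 590 ± 81.5 TPM in abnormal and 524 ± 62.6 TPM in normal fibers, with a log2 change of 0.17 ± 0.10 (SE, limma adjusted p = 0.34), and its part in the *Ddost* value was not tested.

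*Rpn1* (ribophorin I), which helps present some membrane proteins to the catalytic subunit, was 41.8, 44, 37 and 40.9 TPM in abnormal, 30.4, 29.9, 34.1 and 29.2 TPM in normal and 29.1, 30.7, 33.7 and 28.5 TPM in young fibers. The abnormal samples again lay above all others. The log2 change was 0.39 ± 0.08 (SE, limma adjusted p = 0.011). *Dad1* was 153, 149, 124 and 144 TPM in abnormal, 131, 110, 119 and 113 TPM in normal and 135, 137, 136 and 121 TPM in young fibers. Here the groups overlapped, since abnormal replicate 3 was below normal replicate 1. Its log2 change of 0.27 ± 0.08 (SE) narrowly missed the threshold (limma adjusted p = 0.051), with a 95% interval from 0.10 to 0.44.

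Of the catalytic subunits, *Stt3a* was 10.6, 8.08, 6.95 and 9.63 TPM in abnormal, 3.36, 5.32, 5.54 and 5.18 TPM in normal and 4.4, 5.1, 5.82 and 5.39 TPM in young fibers. *Stt3a* had the largest log2 change of the 9 members, 0.75 ± 0.17 (SE, limma adjusted p = 0.015), and its mean was 1.82 times that of normal fibers. *Stt3b* was 39.4, 41.2, 41.8 and 38.8 TPM in abnormal, 26.2, 32, 31.8 and 31.4 TPM in normal and 31.9, 36.9, 37 and 30.5 TPM in young fibers. No abnormal sample of either gene was as low as a normal or young one. The log2 change of *Stt3b* was 0.40 ± 0.09 (SE, limma adjusted p = 0.014). The within-sample log2 ratio of *Stt3a* to *Stt3b*, computed from TPM + 1, was -2.09 ± 0.29 (SD, n = 4) in abnormal, -2.44 ± 0.14 in normal and -2.51 ± 0.15 in young fibers. The difference of 0.35 between abnormal and normal fibers did not pass a two-sided exact permutation test (p = 0.114, adjusted p = 0.34 over 6 ratio tests). The smallest p of this test with 4 against 4 samples is 0.0286.

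The subunits particular to 1 form of the complex did not all move alike. *Magt1*, an oxidoreductase of the STT3B form, was 17.7, 20.8, 17.5 and 17.9 TPM in abnormal, 10.8, 11.1, 13.9 and 12 TPM in normal and 11.9, 13.6, 14.7 and 16.1 TPM in young fibers. All abnormal samples were above all others, and the log2 change was 0.59 ± 0.11 (SE, limma adjusted p = 0.0067). *Tusc3*, the alternative oxidoreductase, was at 0.332–1.39 TPM over the 12 samples with full overlap, and its log2 change was 0.22 with a 95% interval from -0.20 to 0.64 (limma adjusted p = 0.52). On the low values of *Tusc3* the pseudocount matters. The ratio of *Magt1* to *Tusc3* was 3.36 ± 0.30 (SD, n = 4) on the log2 scale in abnormal and 2.99 ± 0.38 in normal fibers, and the difference of 0.37 did not pass the exact permutation test (p = 0.171, adjusted p = 0.34). With a pseudocount of 0.1 the difference was 0.15. *Ostc*, a subunit of the STT3A form that contacts the translocon, was 39.1, 20.3, 28.7 and 29.3 TPM in abnormal and 32.6, 24.9, 26.5 and 26.2 TPM in normal fibers. The abnormal samples held both the highest and the lowest aged value of *Ostc*. Its log2 change of 0.06 had a 95% interval from -0.27 to 0.39 (limma adjusted p = 0.84).

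**Figure D2:**
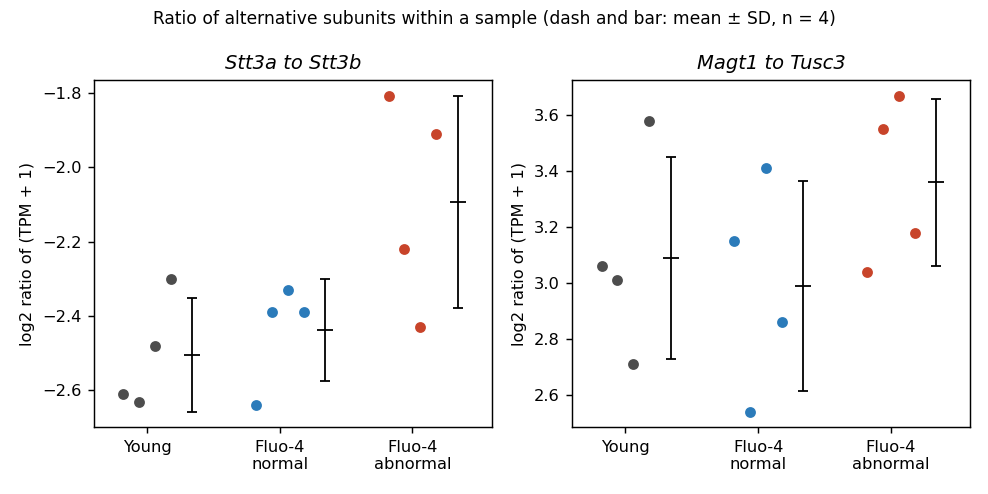
Within-sample log2 ratio of TPM + 1 of Stt3a to Stt3b (left) and of Magt1 to Tusc3 (right) in each sample (points), with mean and SD (dash and bar, n = 4). For Stt3a to Stt3b the abnormal group has the highest mean (-2.09) and the widest spread (SD 0.29), and the groups overlap in both plots.

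The 3 remaining subunits were looked up as well. *Krtcap2*, of the STT3A form, was 98.8–115 TPM in abnormal and 72–102 TPM in normal fibers, which overlapped, and had a log2 change of 0.35 ± 0.10 (SE, limma adjusted p = 0.042). It was called in 4 of 23 alternatives, with limma adjusted p-values from 0.011 to 0.94, and of the fits that left out 1 sample only the one without normal replicate 1 called it. The small shared subunits *Ost4*, at 198–230 against 173–205 TPM, and *Tmem258*, at 120–150 against 121–143 TPM, overlapped between the groups. Their log2 changes were 0.20 (limma adjusted p = 0.091) and 0.05 (limma adjusted p = 0.70). A transcript of *Agbl5* held 780 bases identical to *Ost4*, so the assignment of its reads is uncertain. With *Krtcap2*, whose call rests on the samples in this way, 7 of the 12 subunit genes passed the test.

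The aged samples carry matching replicate numbers. The abnormal sample was above its same-numbered normal sample in 4 of 4 pairs for *Rpn1*, *Rpn2*, *Ddost*, *Dad1*, *Stt3a*, *Stt3b*, *Magt1* and *Krtcap2*, in 3 of 4 for *Ostc*, *Tusc3* and *Ost4*, and in 2 of 4 for *Tmem258*. The share of all genes with 4 of 4 such pairs was not computed, and 69.6% of all genes had a positive change between these groups. The pair counts therefore do not set the subunits apart from other genes. The smallest pair difference of *Rpn2* was 0.30 and the largest 0.85 on the log2 scale, and those of *Stt3a* ranged from 0.28 to 1.41. With the replicate number as a block, 4 of the 9 members were called, *Rpn2*, *Ddost*, *Stt3b* and *Magt1*, with limma adjusted p-values of 0.033, 0.028, 0.031 and 0.04, and 6.36% of all genes were called higher. *Rpn1* (limma adjusted p = 0.058), *Stt3a* (0.096) and *Krtcap2* (0.086) were not called in that fit, with log2 changes of 0.39, 0.75 and 0.35 as before.

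The scaling of the samples and the fast myosin gene *Myh4* moved with these values. With TMM-type factors the median change of genes with a mean of at least 5 TPM went from 0.20 to -0.02, 306 genes (2.12%) were called higher and 544 lower in place of 1062 and 287, and 2 members remained called, *Rpn2* (log2 change 0.42, limma adjusted p = 0.0058) and *Stt3a* (0.56, limma adjusted p = 0.042). Measured from the median of genes of at least 5 TPM, the deposited values of *Stt3a*, *Rpn2*, *Magt1* and *Ddost* were higher by 0.54, 0.44, 0.39 and 0.37 on the log2 scale, those of *Stt3b*, *Rpn1* and *Dad1* by 0.20, 0.19 and 0.06, and that of *Tusc3* by 0.02, whereas *Ostc* was at -0.14. *Myh4*, which encodes the fast myosin of type IIb fibers, held 1.08–1.56% of the TPM in abnormal, 0.625–0.981% in normal and 0.831–1.04% in young samples, and the abnormal samples did not overlap with the others. With this share as a covariate 0 of the 9 members were called by limma, while 79 genes were called in all. An unadjusted p under 0.05 in limma was seen for 7 members and for 1779 of the 14428 genes tested. These 7 included *Dad1* and *Ostc* (log2 change 0.48), which had not been called before, and left out *Stt3b* (0.18). The log2 changes of the 9 members were then 0.18 to 0.85, and the share and the group cannot be told apart in samples that do not overlap. The 7 summed fiber markers were also separate, at 81692–95423 TPM in abnormal against 65127–80480 TPM in normal samples. The myosins of the other fast fiber types had lower means in abnormal fibers with overlapping ranges, at 44.3–147 against 46.2–542 TPM for *Myh1* and 3.74–10.6 against 2.38–34.6 TPM for *Myh2*. The slow myosin *Myh7* was at or below 0.205 TPM in all samples. The part of the myosin mix in the values of the members was tested only through the *Myh4* share.

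**Figure D3:**
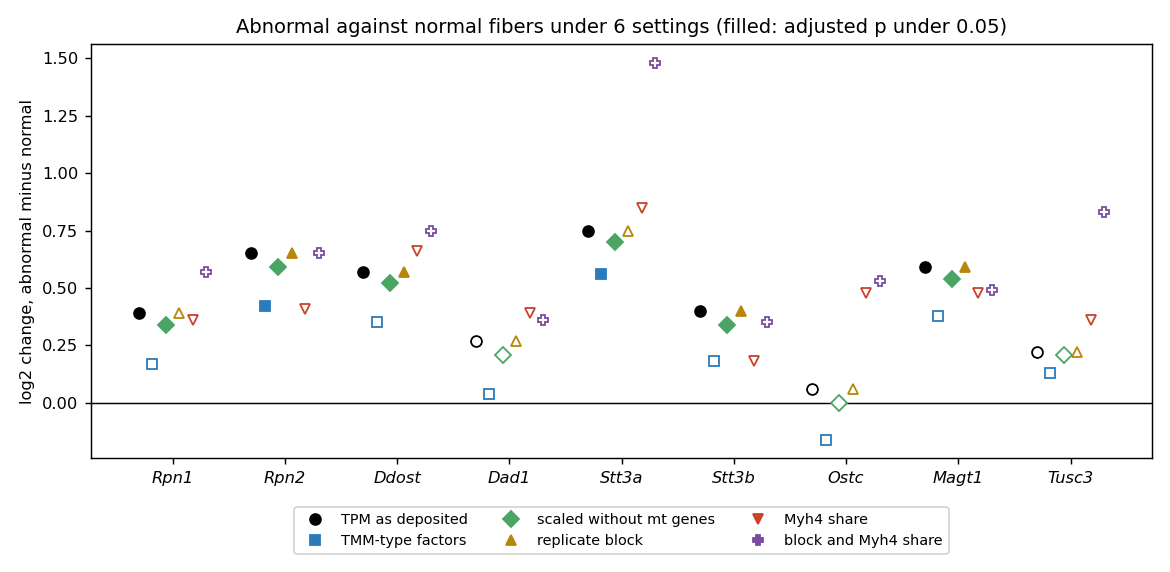
Log2 change (abnormal minus normal fibers) for the 9 members under 6 settings of the limma fit (filled symbols, adjusted p under 0.05). TMM-type factors give the lowest change for most members, and with the Myh4 share as a covariate none is filled although the changes of all 9 stay above 0.

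Markers of other cells summed to far less than those of fibers in both aged groups. The 6 fibroblast markers summed to 13.6–63.8 TPM in abnormal and 25.3–82.4 TPM in normal samples, the 5 immune markers to 7.59–12.8 and 5.5–18.8 TPM, the 5 endothelial markers to 1.82–7.6 and 4.3–13.5 TPM, and the 4 satellite cell markers to 0.395–0.745 and 0.298–0.782 TPM. Erythroid markers summed to 44.3–235 and 118–480 TPM, Schwann cell markers to 3.41–7.64 and 1.32–6.33 TPM, and smooth muscle and pericyte markers to 2.65–10.5 and 4.6–20.5 TPM. Each of these ranges overlapped between the aged groups. In young samples the immune markers summed to 0.991–2.47 TPM, below both aged groups, with *Ptprc* and *Adgre1* listed at 0. Schwann cell markers summed to 0.773–1.81 TPM in young samples, below all abnormal and overlapping with normal samples. The other lists overlapped between abnormal and young samples, and the part of any of these markers in the comparisons with young fibers was not tested.

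Compared with young fibers, the abnormal fibers had higher levels of 4 of the 9 members, and none was called lower, while 6.09% of all genes were called higher and 2.41% lower. The fit of genes of at least 5 TPM in a group called 962 of its 6348 genes higher and 5 members, *Magt1* being the added one. *Ddost* rose by 0.75 ± 0.09 on the log2 scale (SE, limma adjusted p = 0.00036), *Stt3a* by 0.66 ± 0.17 (limma adjusted p = 0.028), *Rpn2* by 0.47 ± 0.11 (limma adjusted p = 0.02) and *Rpn1* by 0.41 ± 0.08 (limma adjusted p = 0.0082). *Magt1* and *Stt3b* were also higher in every abnormal than in every young sample, with log2 changes of 0.38 (limma adjusted p = 0.055) and 0.24 (limma adjusted p = 0.11) that did not pass. All 6 of these members were without overlap, as were 12.2% of all genes. *Dad1* (0.10), *Tusc3* (0.11) and *Ostc* (-0.22) did not pass (limma adjusted p of 0.48, 0.79 and 0.42). *Pink1* differed by 0.16 between the same groups (limma adjusted p = 0.41). Leaving out young replicate 1 or 4, or abnormal replicate 2 or 4, left 2 members called, *Rpn1* and *Ddost*, and the *Myh4* share as a covariate left *Ddost* alone.

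Between Fluo-4 normal and young fibers, 0 of the 9 members passed, and 1.15% of all genes were called in either direction. An unadjusted p under 0.05 in limma was seen for 0 members and for 1865 of the 14428 genes tested. The log2 changes ran from -0.28 for *Ostc* to 0.18 for *Ddost*, with a median of -0.16, and 7 of the 9 were below 0. Most other genes were also not positive in this comparison. Of all genes tested, 6278 of 14428 had a positive change, with a median of -0.02. Of the genes of at least 5 TPM in a group, 2189 of 6348 did, with a median of -0.07. The normal samples of *Ddost* were all above the young ones, as in 3.03% of all genes, with a 95% interval of the change from -0.01 to 0.37 (limma adjusted p = 0.43). The 95% interval was -0.16 to 0.20 for *Rpn1*, -0.45 to 0.27 for *Stt3a* and -0.46 to 0.03 for *Magt1*. Both comparisons with young fibers share the young samples, and both comparisons of abnormal fibers share the abnormal samples, so their values are not independent.

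**Figure D4:**
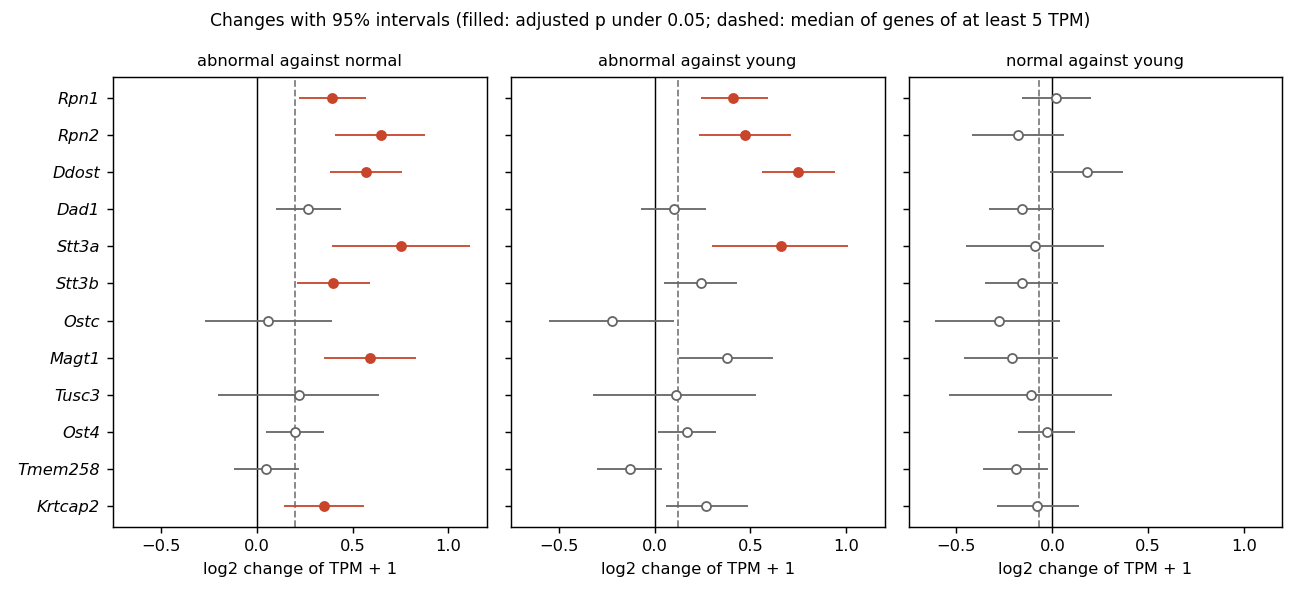
Log2 change of TPM + 1 with its 95% interval for the 12 subunit genes in the 3 comparisons (filled points, limma adjusted p under 0.05; dashed line, median of genes with at least 5 TPM in a group, 0.20 in the left panel). Filled points number 7 between abnormal and normal fibers, 4 between abnormal and young fibers and 0 between normal and young fibers.

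Genes that act before and after OST were counted from lists in the abnormal against normal comparison, where 7.36% of all genes were called higher and 69.6% had a positive change. The fit of the 6348 genes of at least 5 TPM in a group called 22.4% higher, and many genes of the lists are of that level. The 23 genes that build the lipid-linked glycan had a median log2 change of 0.20, all 23 were positive and 1 was called, *Alg6*, a glucosyltransferase that adds the first glucose. *Alg6* was at 5.95–8.03 TPM in abnormal and 2.35–4.46 TPM in normal samples, a log2 change of 0.82 ± 0.20 (SE, limma adjusted p = 0.023). A share of 1 in 23 is below that of all genes. The mannosyltransferases *Alg9* (0.43, limma adjusted p = 0.13) and *Alg11* (0.56, limma adjusted p = 0.20) did not pass. *Alg6*, called on these same samples, was higher in every abnormal than in every normal sample, as were 11.5% of all genes. It was also higher in every abnormal than in every young sample, as were 12.2% of all genes. The share of genes for which both held was not computed.

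Of the 12 genes for trimming of the new glycan and the calnexin cycle, in which lectin chaperones hold glycoproteins until they fold, 4 were called higher. A positive change was seen in 10 of the 12, and the median was 0.42. The chaperone *Calr* was at 88.8–135 TPM in abnormal and 57.2–75.7 TPM in normal samples (log2 change 0.72 ± 0.12, SE, limma adjusted p = 0.0043). *Canx*, the membrane-bound counterpart, was at 28.4–45.9 against 15.7–26 TPM (0.69 ± 0.16, limma adjusted p = 0.018), and *Pdia3*, the disulfide isomerase that works with both, at 21.3–25.6 against 11.7–16.8 TPM (0.64 ± 0.12, limma adjusted p = 0.0059). The groups did not overlap for these 3 chaperone genes, and the sizes of their changes were close to those of *Rpn2*, *Ddost* and *Magt1*. The remaining called gene, *Uggt1*, had the largest change of the list (0.81 ± 0.19, SE, limma adjusted p = 0.019). The related *Uggt2* was at -0.21 (limma adjusted p = 0.57).

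Of the 9 translocon genes 3 rose, with a median of 0.34 and all 9 positive. All 9 had at least 5 TPM in a group, and the fit of such genes called 22.4% of its genes higher. *Ssr3* and *Ssr1*, subunits of the translocon-associated protein complex that sits beside OST at the Sec61 channel, were at 165–219 against 93.6–123 TPM and at 72.6–96.5 against 44.7–57.2 TPM. Their log2 changes were 0.81 ± 0.10 and 0.73 ± 0.10 (SE, limma adjusted p = 0.00073 and 0.00099). *Sec61b*, a subunit of the channel, was at 118–151 against 80.9–120 TPM, which overlapped (0.39 ± 0.11, limma adjusted p = 0.039), and was called in 4 of 23 alternatives. Of the 13 Golgi enzymes that remodel N-glycans 12 had a positive change, with a median of 0.33, and 1 was called, *Mgat2* (0.51 ± 0.13, limma adjusted p = 0.029). *Man1a* (0.79) and *Man2a2* (0.53) had a limma adjusted p of 0.062 each. Of the 12 genes of O-mannosylation, the other ER glycosylation pathway known for its role on muscle dystroglycan, 11 had a positive change, with a median of 0.29. Of these 1 was called, *B3galnt2* (0.51 ± 0.11, limma adjusted p = 0.015), and *Pomgnt1* (0.40) and *Pomk* (0.44) were not (limma adjusted p of 0.056 and 0.11). The count of 1 in the Golgi and O-mannosylation lists is near the share of all genes. No gene of these lists was called lower.

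**Figure D5:**
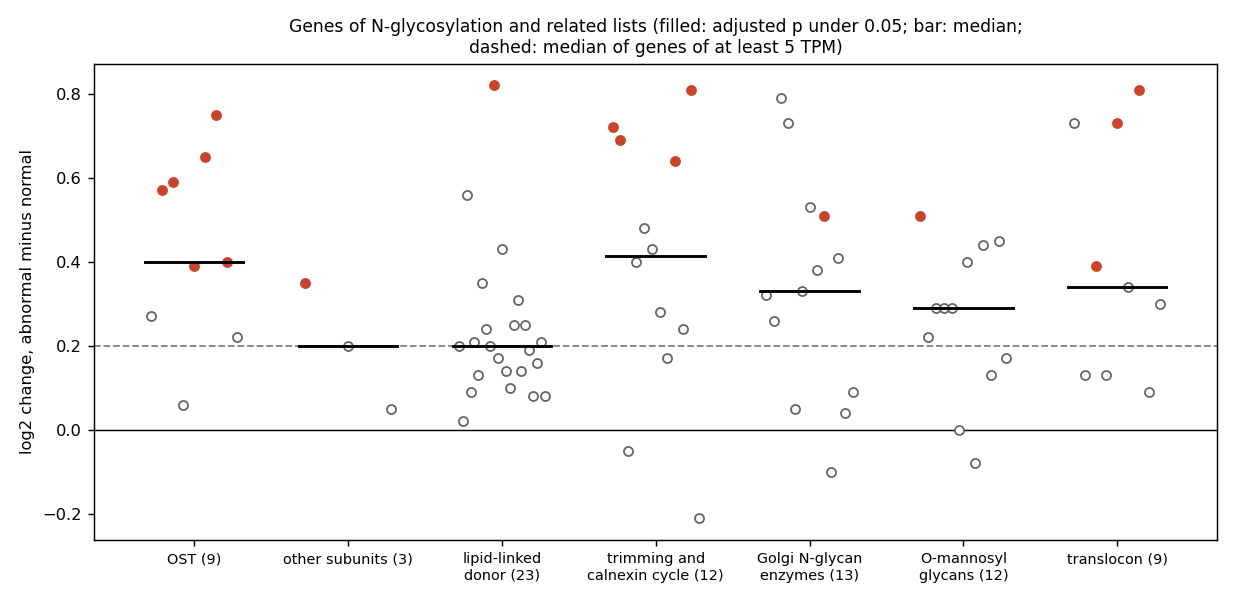
Log2 change (abnormal minus normal fibers) for each gene of the OST and of the lists of related genes (points; filled, limma adjusted p under 0.05; number of genes in brackets; bar, median of the list; dashed line, median of genes with at least 5 TPM in a group, 0.20). The medians of the OST members (0.40) and of the trimming and calnexin genes (0.42) lie above the dashed line and that of the lipid-linked donor genes (0.20) on it.

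Against young fibers, the abnormal fibers had 4 of the 12 trimming and calnexin genes higher (median 0.36) and 2 of the 9 translocon genes (0.28). The counts were 1 of the 23 lipid-linked donor genes (0.05), 1 of the 13 Golgi enzymes (0.17), 0 of the 12 O-mannosylation genes (0.12) and 0 of the 3 other OST subunits (0.17). Of all genes 6.09% were called higher, and 962 of 6348 in the fit of genes of at least 5 TPM in a group. *Ssr3* rose by 0.85 ± 0.10, *Pdia3* by 0.69 ± 0.12, *Alg6* by 0.94 ± 0.20 and *Calr* by 0.50 ± 0.12 on the log2 scale (SE, limma adjusted p of 0.00036, 0.0037, 0.013 and 0.025). The Golgi gene called here was *Man1a* (1.10 ± 0.25, limma adjusted p = 0.016), whereas *Mgat2* did not pass (0.41, limma adjusted p = 0.072). The median of the 9 OST members in this comparison was 0.38, against 0.07 over all genes tested and 0.12 over genes of at least 5 TPM. Between normal and young fibers 1 gene of the lists was called, *B3galnt2*, which in normal fibers (30.1 ± 2.78 TPM) fell by 0.64 on the log2 scale from young fibers (47.5 ± 6.44 TPM, limma adjusted p = 0.018).

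The genes whose profile over the 12 samples was most like the mean profile of the 9 members, by root-mean-square distance of gene-centred log2(TPM + 1) among 5986 genes with a mean of at least 5 TPM, were *Metap1* (0.062), *Srp54a* (0.076), *Fnta* (0.078), *Snx5* (0.079) and *Atg3* (0.081). *Srp54a* encodes the signal-recognition subunit of the particle that brings ribosomes to the translocon, and *Metap1* removes the first methionine from new proteins. *Srp54a* had means of 50.8 TPM in young, 48.4 TPM in normal and 66.4 TPM in abnormal fibers. The mean centred profile of the members was -0.15 to 0.04 in young, -0.28 to -0.12 in normal and 0.11 to 0.34 in abnormal samples, with no overlap between the abnormal samples and the others.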

How the data were processed

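RNA-seq data of 12 samples of EDL fibers were used, 4 per group, with groups taken from the sample titles. The authors made libraries from 10 ng of RNA with SMART-Seq v4, used DRAGEN 4.3 to align reads to GRCm39, and deposited TPM for each gene, 1 file per sample, with replicates kept apart. The annotation release is not given in the sources used here. Of 55487 lines per file, symbols on several lines (114) were summed. Symbols were matched to GENCODE vM39 and RefSeq, and 2876 unmatched symbols held 0.243% to 0.298% of the TPM. Depth per sample is unknown, so no interval from read counts was computed.

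Tests covered 14428 genes, protein-coding or encoded by the mitochondrial genome, with a group mean of 0.02 TPM or more in some group, and were run on log2(TPM + 1) with limma 3.58.1 in R 4.3.3, using a variance trend, all 12 samples and Benjamini-Hochberg adjustment, with a threshold of 0.05. The fit was tested on simulated data, drawn with the same spread in every group and without pairing or shifts in scaling between samples. That simulation cannot bear on the scaling, the replicate block or the *Myh4* share. Ratios of alternative subunits were compared by two-sided exact permutation over the 70 arrangements. Near-identical transcripts were sought with BLAST 2.17.0 (identity of 95% or more across 100 or more bases and 50% of the transcript). Tables and figures were made in Python 3.11.15 (numpy 2.4.6, pandas 2.3.3, scipy 1.17.1, matplotlib 3.10.9).

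The members and lists were chosen with earlier results of these data known. Named genes are the 9 members, the other subunits, the 3 genes of each related list with the lowest p for abnormal against normal fibers, the fiber markers, and the 5 nearest profiles. Genes overlapping a member, and *Uggt1* and *Uggt2*, were added after their values were seen. The labels give the aged groups the same replicate numbers, but no source used here ties a number to a mouse. Centred on their group means over 5994 genes, abnormal and normal samples of the same number had correlations of 0.44, 0.37, 0.43 and 0.30, and those of unlike numbers -0.36 to 0.23. The numbers were therefore taken to pair the samples in the replicate block. The alternatives were scaling without mitochondrially-encoded genes or by TMM-type factors (trimming 30% of ratios and 5% of levels), a pseudocount of 0.1, no filter or a filter of 5 TPM, all annotated genes, only the groups compared, the replicate block, the *Myh4* share as a covariate, both together, sample quality weights, and leaving out each sample.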

Additional observations from a re-analysis of the deposited data

Results flagged for a closer look

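For each of the 12 subunit genes and both ratios, every group of 4 samples was searched for a sample far from the other 3 by Dixon's criterion, 42 groups in all. In 4 of them a sample stood apart, where chance gives about 1 in 20 groups. *Dad1* was 121 TPM in young replicate 4, below the others. *Stt3a* was 3.36 TPM and *Stt3b* 26.2 TPM in Fluo-4 normal replicate 1, both below the other normal samples. *Magt1* was 20.8 TPM in Fluo-4 abnormal replicate 2, above the other abnormal samples. Without normal replicate 1, 7 of the 9 members were called between abnormal and normal fibers, *Stt3a* and *Stt3b* among them.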

How the results depend on the processing

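Between abnormal and normal fibers 6 of the 9 members were called (7.36% of all genes higher), with 2 under TMM-type factors, 0 with the *Myh4* share as a covariate, 0 with block and *Myh4* share together (815 of all genes at an unadjusted p under 0.05 in limma, no member among them), 4 with the replicate block, and 6 to 7 without any 1 sample. Between abnormal and young fibers 4 were called, with 2 under TMM-type factors, 2 with no filter on low values, 1 with the *Myh4* share, and 2 to 5 without any 1 sample. Between normal and young fibers 0 were called in every alternative. Of the genes in the related lists, the other subunits included, 11 were called, with 6 under TMM-type factors, 6 with no filter, 6 with only the groups compared, 0 with the *Myh4* share, 0 with block and *Myh4* share, 12 with the replicate block, and 4 to 11 without any 1 sample, 4 being the count without abnormal replicate 2 and 7 that without abnormal replicate 3 or 4. Over all genes, 1349 were called between abnormal and normal fibers, with 850 under TMM-type factors, 850 with no filter, 566 with only the groups compared, 79 with the *Myh4* share, 0 with block and *Myh4* share, 1150 with the replicate block, and 606 to 1420 without any 1 sample (606 without abnormal replicate 2). Between abnormal and young fibers these were 1227, with 750 without a filter, 627 with the *Myh4* share and 576 to 1677 without any 1 sample (576 without young replicate 4). Between normal and young fibers they were 166, with 71 without a filter, 266 with a filter of 5 TPM, 69 with only the groups compared, 358 with quality weights and 45 to 183 without any 1 sample (45 without young replicate 2).

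Of 206 alternative log2 changes of the members between abnormal and normal fibers, 2 turned negative, both of *Ostc*, at -0.16 with TMM-type factors and -0.08 without abnormal replicate 1, and 19 were no longer past the threshold. The other subunits turned to -0.03 (*Ost4*) and -0.17 (*Tmem258*) with TMM-type factors, and *Tmem258* to -0.01 without mitochondrially-encoded genes, with a range of -0.00 (abnormal replicate 2) to 0.11 without any 1 sample. *Man2a2* was -0.12 with the *Myh4* share and *Pomk* -0.01 with block and share. Against young fibers, *Dad1* was -0.07 with TMM-type factors and *Ostc* 0.07 with the *Myh4* share. Between normal and young fibers, *Rpn1* was -0.03 to -0.00 without normal replicate 3 or young replicate 1 or 4 (-0.01), *Stt3a* -0.15 to 0.04 without any 1 sample (0.04 without normal replicate 1), *Tusc3* -0.23 to 0.04 (0.04 without young replicate 3), and the log2 ratio of *Magt1* to *Tusc3* 0.02 with a pseudocount of 0.1 and -0.24 to 0.06 without any 1 sample (0.06 without young replicate 4, 0.05 without normal replicate 2). Except where the numbers of samples or genes in the fit differed, the cause was not tested. The ratios between abnormal and normal fibers kept their direction, at 0.25 to 0.46 (*Stt3a* to *Stt3b*) and 0.22 to 0.51 (*Magt1* to *Tusc3*) without any 1 sample, and at 0.35 and 0.37 in a sign permutation over the pairs of the replicate block, in which p cannot go below 0.125. With a pseudocount of 0.1 the difference in *Magt1* to *Tusc3* was 0.15 (exact permutation adjusted p = 0.96). Apart from *Rpn1*, *Stt3a* and *Krtcap2*, the replicate block changed no call of a subunit. Unknown depth and 4 samples per group limit what can be said of *Tusc3*, which was near 1 TPM.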
